A study of Mus musculus with 6 samples.

Results

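Histone genes supply the proteins around which DNA is wrapped, and 73 of the 34714 gene symbols in the count table were taken as histone genes by a rule on their names. The rule took symbols that start with H1f, H2ac, H2bc, H3c or H4c and end in a number, symbols of the older Hist form, and H3f3a, H3f3b, H2ax, H2az1, H2az2 and H2aw. These comprised 10 genes of the linker histone H1, 21 of H2A, 16 of H2B, 14 of H3 and 12 of H4, and their counts were compared in gastrocnemius (Gas) muscle between WT mice and mice lacking miR-92b (M92KO). The group was chosen by measured values of this same contrast, because the counts of 1 of its genes, H2aw, differed between the genotypes. The difference in H2aw is therefore described without a test. For the other genes, how many passed a threshold is set beside the share of all genes that did, and nothing further is read from it.

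There were 3 WT and 3 M92KO mice, all untreated and 8 weeks old, and each mouse gave 1 library of Gas mRNA. The knockouts were purchased animals of a C57BL/6JGpt strain with an edited Mir-92b allele (em22), described as a complete deletion of exons and carried by every cell, and the controls were age-matched C57BL/6 mice. The paper describes its knockout mice as male, and its animal methods include an overnight fast before tissue was taken. It does not state the sex of these controls or whether that fast covered the sequenced mice. Whether the control mice were littermates is not given in the sources used here, so genotype and colony of origin cannot be told apart. Counts summed to between 38246649 and 48209846 per WT library and to between 33160508 and 37019640 per M92KO library. The 6 skeletal muscle fibre markers (Acta1, Ckm, Myh4, Myh1, Tnnt3 and Mb) summed to between 99560 and 108100 CPM (counts scaled to TMM-normalized library sizes) in all 6 libraries. Of the M92KO libraries, replicate 1 stood apart. Without it, 401 genes of the whole table had an adjusted p-value under 0.05 in edgeR's quasi-likelihood test, against 0 of 15788 (0.0%) with all 6 libraries, among which 1955 had an unadjusted p under 0.05.

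In the nucleosome, DNA is wound around a core of H2A, H2B, H3 and H4, and H1 binds the DNA between cores. Most histone genes lie in clusters, are transcribed mainly while DNA is replicated, and give mRNAs that end in a stem-loop in place of a poly(A) tail. A few genes elsewhere in the genome encode replacement variants, such as H3.3 (H3f3a and H3f3b), H2A.Z (H2az1 and H2az2) and H1.0 (H1f0), which are made throughout the cell cycle and in cells that no longer divide, as muscle fibres do not.

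By the RefSeq gene table of GRCm38.p6, 53 of the 73 genes lay on chromosome 13 between positions 21715711 and 23934913. A smaller group of 10 genes lay on chromosome 3 between 96219885 and 96270192, the chromosome that also holds H2az1 and miR-92b itself. The other 9 genes were spread over chromosomes 1, 6, 9, 11 and 15. Both mature products of the deleted microRNA are shown because their seeds, bases 2 to 8 in capitals, were searched for in the histone mRNAs. They are encoded on the minus strand at chr3:89227126-89227147 and chr3:89227165-89227188.
miR-92b-3p: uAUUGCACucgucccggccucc
miR-92b-5p: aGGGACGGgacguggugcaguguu
The letters complementary to the seeds, GTGCAAT and CCGTCCC, were searched in GENCODE M21 3′-UTRs of at least 20 bases. They were present in 0 of the 58 histone genes with such a 3′-UTR, both for miR-92b-3p and for miR-92b-5p. Among all 20954 genes with such a 3′-UTR, 6.95% held the first and 3.07% the second. No match says only that these letters are not in the annotated 3′-UTRs. A value for the microRNA itself was not analysed here, so the labels were not checked against it.

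H2aw (Hist3h2a in older annotation) encodes an H2A protein and lies outside the large clusters, at chr11:58954685-58955192 on the plus strand. Each WT library held 3 counts of it, and the M92KO libraries held 18, 21 and 39. All WT libraries were at the detection floor of 3 counts and all M92KO libraries were above it, so the groups did not overlap. In CPM, the means were 0.0685 ± 0.00802 in WT and 0.745 ± 0.292 in M92KO (SD, n = 3 each). Relative to library size, the 78 counts of the M92KO libraries together were 11.1 times the 9 counts of the WT libraries. These counts chose the group, so no interval is set on their ratio. The fitted log2 fold change was 3.40, and it rests on those 9 counts. H2aw was the only histone gene that passed the filter on low counts with 0 WT libraries over the limit.

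The whole RefSeq span of H2aw, all 508 bases, lies inside the first exon of a transcript of Trim17, a gene for a tripartite-motif ubiquitin ligase on the same strand. By GENCODE M21 that exon runs from 58954685 to 58955392. The GENCODE model of H2aw runs on past it to 58956830, and where within the model the reads lay cannot be seen from counts. In addition, the predicted gene Gm44313 lies within H2aw on the other strand. How reads in such an overlap were assigned is not given in the sources used here, so counts of H2aw and of that exon of Trim17 cannot be told apart with certainty. Trim17 had 679, 587 and 832 counts in WT and 496, 446 and 453 in M92KO, and the groups did not overlap in CPM either (15.8 ± 1.46 against 13.5 ± 0.914, SD, n = 3 each). Its log2 fold change was −0.23 ± 0.101 (SE), with an adjusted p of 0.408 in edgeR over all 15788 genes and an exact two-sided permutation p of 0.1, the smallest that 3 against 3 samples allow. Of the summed counts of H2aw and Trim17, H2aw held 0.44%, 0.508% and 0.359% in WT and 3.5%, 4.5% and 7.93% in M92KO. The exact 95% binomial intervals of these shares cover counting error only. They are no test, because H2aw was chosen for this difference and the share was computed after seeing the data. The next tested genes beside H2aw overlapped between groups. Trim11, a related ubiquitin ligase, had 26.1 ± 1.47 and 25.1 ± 4.9 CPM. The lncRNA Gm51863 had 7.09 ± 0.69 and 6.8 ± 0.836 CPM. Adjusted p-values in edgeR were 0.907 and 0.895, and the neighbouring histone genes H2bu2 and H3f4 had at most 8 and 2 counts in any library.

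**Figure D1:**
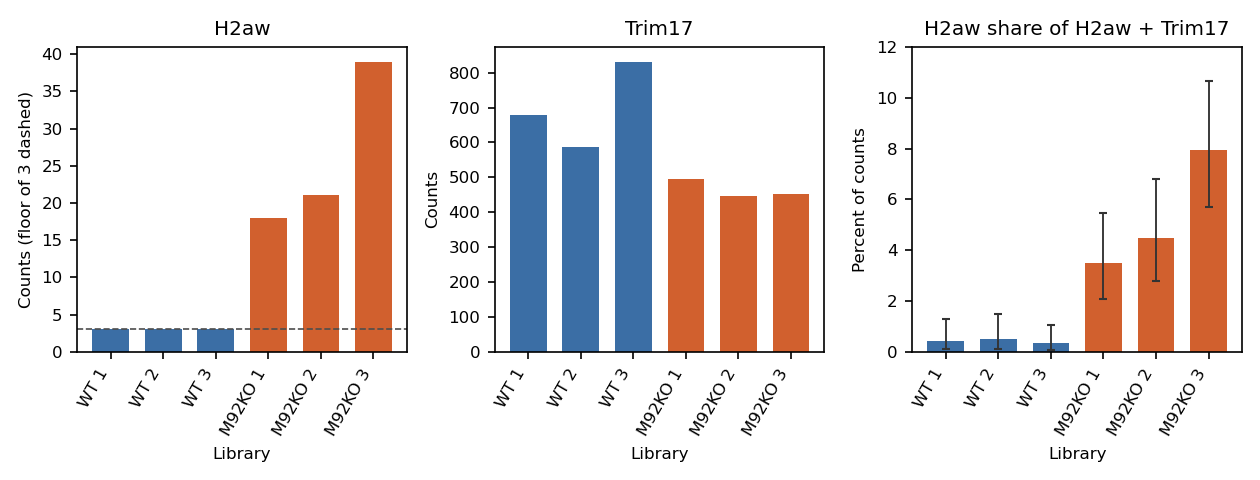
Bars give the counts of H2aw (left) and Trim17 (middle) and the percent of their summed counts held by H2aw (right, with exact 95% binomial intervals) in each library. H2aw sat at 3 counts in every WT library and between 18 and 39 in the M92KO libraries, while Trim17 lay between 587 and 832 in WT and between 446 and 496 in M92KO.

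The end of the RefSeq gene H2aw holds the stem-loop of replication-dependent histone mRNAs. A single annotated transcript per gene was searched, that with the longest coding sequence and, among equals, the greatest length. A stem-loop was found in 42 of the 73 genes. The sequences below show it with its stem and loop in capitals, at chr11:58955167-58955192 for H2aw and at chr13:23571838-23571863, chr3:96246027-96246052, chr13:23739507-23739532, chr13:23531453-23531478 (all plus strand) and chr13:22040961-22040986 (minus strand) for 5 of the more abundant genes.
H2aw: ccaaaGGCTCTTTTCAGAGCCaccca
H2bc8: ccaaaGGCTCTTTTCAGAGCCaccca
H2ac18: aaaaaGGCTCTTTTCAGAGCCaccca
H1f2: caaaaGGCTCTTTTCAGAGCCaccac
H4c8: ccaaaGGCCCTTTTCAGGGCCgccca
H4c9: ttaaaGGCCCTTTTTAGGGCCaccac
The capitals of H2aw, H2bc8, H2ac18 and H1f2 are those of 24 of the 42 genes. In 21 genes the transcript searched ended within 100 bases of the stem-loop, and in 21 others, H2aw among them, it ran on. The GENCODE model of H2aw continued for 1643 bases past the stem-loop. No stem-loop was found in the transcript searched for the remaining 31 genes. Several of these models, such as those of H2ac13 and H4c12, hold no 3′-UTR, so a stem-loop could not be found in them.

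Most of the histone signal came from a few genes. The 2 most abundant, H3f3a and H1f0, made up 43.9% of all histone CPM, and the 6 most abundant (with H1f2, H3f3b, H2az1 and H2bc4) made up 82.8%. Summed over all 73 genes, histone CPM was 769.7, 784 and 788 in WT and 877, 803 and 809 in M92KO. In contrast, 4 genes known from germ cells (H1f6, H1f7, H1f8 and H2ac1) had 0 counts in every library. A count above 3 in every library was found for 39 genes, and 15 genes never exceeded 3 counts in any library. The difference between these genes is limited by depth, since 3 counts corresponded to between 0.0629 and 0.0916 CPM.

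Levels were compared between genes per kilobase of annotated exon. H1f2 (72.02 CPM per kb) and H1f0 (71.9) were highest, and their ranges over the 6 libraries overlapped. They were followed by H3f3a (58.7), H2bc4 (43.1) and H2az1 (34.8), with no overlap of range between H1f0 and H3f3a, H3f3a and H2bc4, or H2bc4 and H2az1. H2az1, H3f3b (29.9), H2ac19 (29.5) and H2ac18 (27.1) formed a run in which each range overlapped the next. H4c8 (22.7) and H2az2 (22.3) overlapped each other, and H4c9 (12.8) overlapped H2bc8 (10.6). H2aw stood at 0.0319 CPM per kb in WT and 0.347 in M92KO over its GENCODE model, and at 0.135 and 1.47 over its shorter RefSeq span. Over RefSeq spans, which hold no intron in these genes, H1f2 would stand at 155 and H4c9 at 23.1 CPM per kb, so the order depends on the gene model. The 5 replacement variants for H3.3, H2A.Z and H1.0 were thus all among the 10 highest genes in these libraries, beside the clustered genes H1f2, H2bc4, H2ac18, H2ac19 and H4c8. How well mRNAs without a poly(A) tail were captured was not tested, so this order need not be that of the levels in muscle.

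Per kilobase of annotated exon, genes whose annotated transcript ended at the stem-loop had a median of 0.224 CPM. The 20 genes other than variants whose transcript ran on past it had a median of 0.321 CPM, or 0.413 with the variant H2ax. The 25 genes other than variants in whose transcript no stem-loop was found had a median of 0.142 CPM per kb. Several of their models hold no 3′-UTR, so they are not known to lack a stem-loop. H1f2 ran on for 840 bases, whereas H2ac18, H2ac19 and H4c8 ended at the stem-loop and still reached 27.1, 29.5 and 22.7 CPM per kb. The 6 variants without a stem-loop had a median of 32.3 CPM per kb, and the variant H2ax, which has a stem-loop 822 bases before its annotated end, had 4.19. These are descriptions across genes that differ in length and in the sequence they share. They may also differ in capture, since whether mRNAs without a poly(A) tail entered the libraries as well as others was not tested.

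**Figure D2:**
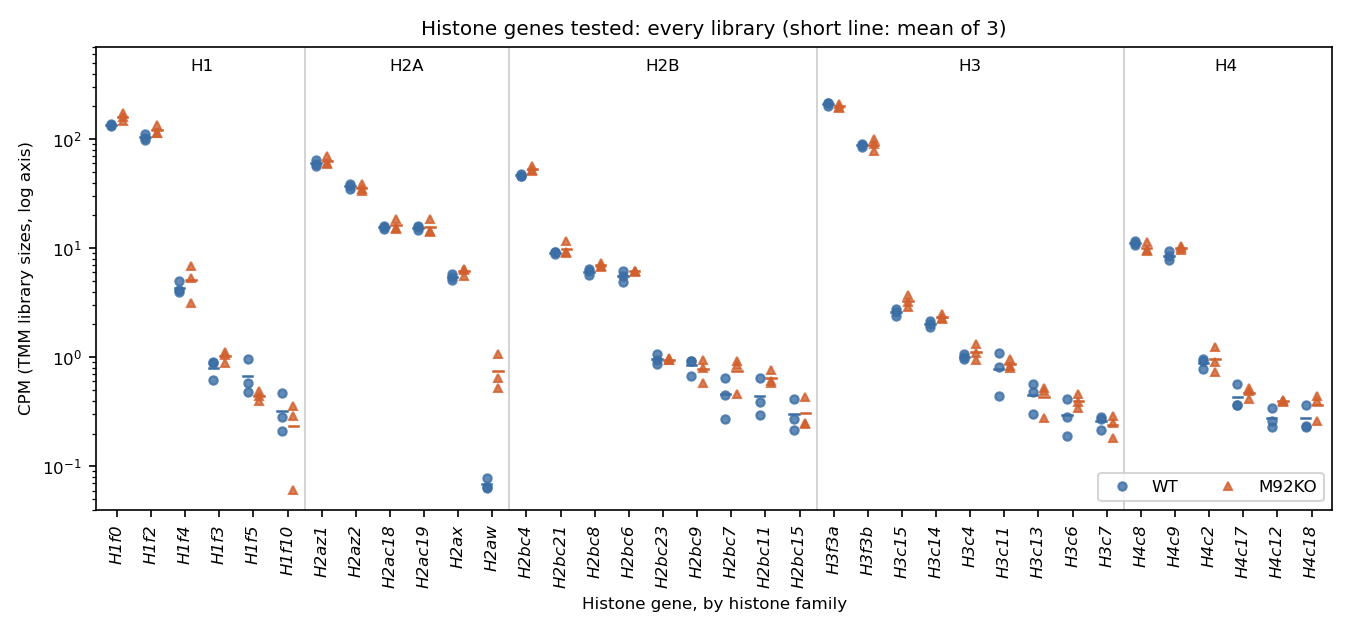
Each point is the CPM of 1 library on a log axis for the 36 histone genes that passed the filter, ordered by family and mean level, with circles for WT, triangles for M92KO and a short line for the mean of 3. Levels run from below 0.1 CPM for H2aw in WT to over 200 CPM for H3f3a, and the symbols of the groups lie close together for most genes.

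Many histone genes are near copies of each other, which limits how well their reads can be assigned. Of 73 genes, 24 shared over 90% of the 50-base windows of their coding sequence with a transcript of another gene, 15 of them shared every window, and 8 shared none. The other gene was not always one of the 73. H2az1, H2bc18 and H3f3a, which are among the 24, shared windows only with genes outside the 73. Pairs with identical coding sequence were H2ac18 and H2ac19, H2ac23 and H2ac24, and H4c17 and H4c18. H2ac18 had 741, 577, 748, 638, 501 and 542 counts in the 3 WT and 3 M92KO libraries, in order. H2ac19 had 726, 571, 762, 647, 464 and 519, so the ratio between these genes stayed between 0.982 and 1.08. Counts of these genes are uncertain for that reason. So are the levels given above for H2bc4, H2az1 and H3f3a, which shared 97.6%, 100% and 92.8% of their windows. All 341 windows of the coding sequence of H2aw were shared, but with Trim17 and Gm44313. Only 42 of them were found in another of the histone genes analysed, and over the 390 coding bases H2aw was between 77.7% (H2ac21) and 89.7% (H2ac13) identical to 14 other H2A genes of equal length. H1f0, H1f5, H2az2 and H2bc21, all of which were tested, shared no window.

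The comparison between genotypes rests on 36 histone genes that passed the filter on low counts. The remaining 37 had at most 52 counts over all libraries. On either side of the filter, H3c7 (between 0.183 and 0.288 CPM) was tested and H2bc12 (between 0.129 and 0.275 CPM) was not. Among the 36, 27 had a log2 fold change above 0 and 9 below 0, with a median of 0.14, and the median over all 15788 genes was 0.00. Without H2aw the median was 0.13. After adjustment over all genes, none of the other 35 histone genes had a p-value under 0.05 in edgeR (background 0.0%), and the smallest was 0.256, for H1f0. DESeq2's Wald test, which called 312 genes of the whole table, called 0 of the 25 histone genes to which it gave an adjusted p, and the smallest was 0.113. H2aw is left out of the counts that follow. At an unadjusted p under 0.05 in edgeR, 3 of 35 histone genes were higher in M92KO (H1f0, H1f2 and H2bc4) beside 5.47% of all genes, and 0 were lower beside 6.92%. The M92KO values lay above all WT values in 8 of 35 genes beside 8.77% of all genes, and below them in 0 beside 9.58%. Of these 8, H4c12 had 1 WT and 3 M92KO libraries over the limit of the filter, so its passing depended on the group where it was higher. Without M92KO replicate 1, when 37 histone genes other than H2aw passed the filter, 4 were higher (H1f0, H1f2, H1f4 and H2bc4) beside 9.62% of all genes, and 1 was lower (H4c8) beside 8.96%. In that setting the values of 11 lay above those of WT, beside 18.9% of all genes, and 5 lay below, beside 18.3%, and the median log2 fold change with H2aw was 0.09. A change in the number of cells of a type and a change in RNA per cell cannot be told apart in these whole-muscle samples.

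**Figure D3:**
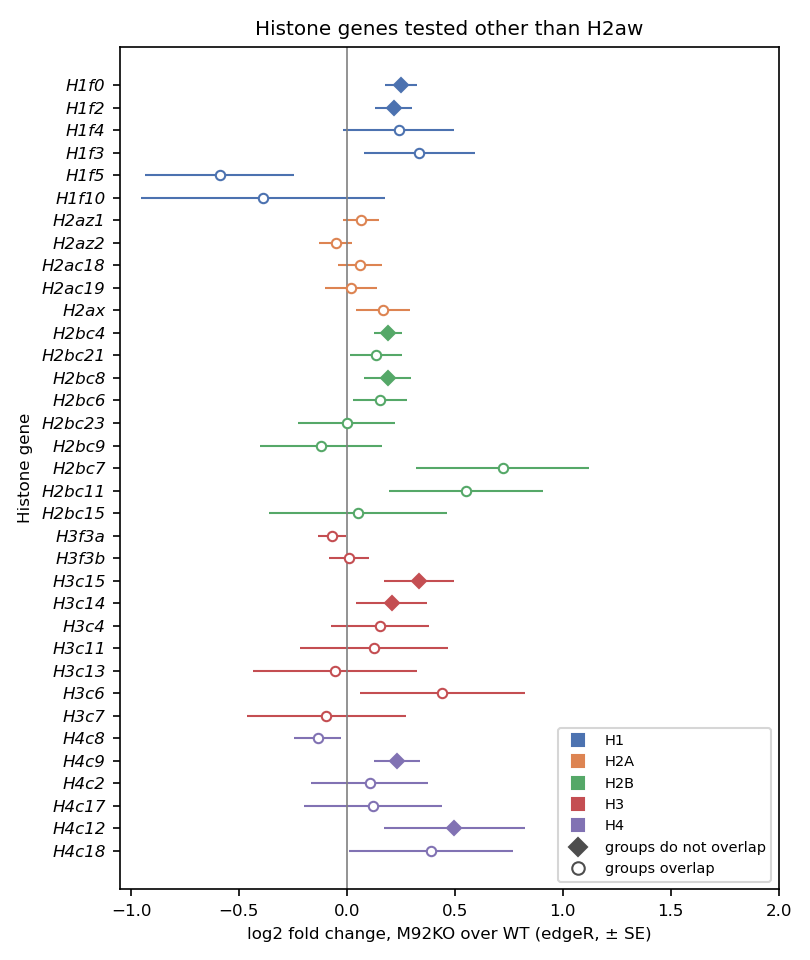
Points give the log2 fold change of M92KO over WT with its SE from edgeR for the 35 histone genes tested other than H2aw, coloured by family, with filled diamonds where the 3 M92KO values do not overlap the 3 WT values. Filled diamonds lie right of 0 for 8 genes (H1f0, H1f2, H2bc4, H2bc8, H3c14, H3c15, H4c9 and H4c12), and error bars are widest for genes under 1 CPM.

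Among the linker histones, H1f0 encodes H1.0, the H1 variant of cells that have stopped dividing. Its CPM was 135.0, 137 and 133 in WT and 174, 160.1 and 148 in M92KO. All M92KO values were above all WT values, and the group means differed by more than the SD of either group (135.0 ± 1.93 against 161 ± 13.03, n = 3 each). The log2 fold change was 0.25 ± 0.0746 (SE, edgeR adjusted p = 0.256, exact permutation p = 0.1). H1f2, a clustered gene for one of the main somatic H1 proteins, had 98.6, 111 and 102 CPM in WT and 114, 114 and 134 in M92KO, again without overlap. Its log2 fold change was 0.22 ± 0.0854 (SE, edgeR adjusted p = 0.365). H1f3, H1f4 and H1f5, the other somatic H1 genes tested, were below 7 CPM in every library, and their groups overlapped. H1f4 ranged from 3.98 to 4.96 CPM in WT and from 3.17 to 6.94 in M92KO. The transcript of H2bc6 overlaps H1f4 on the same strand, so reads there cannot be told apart either. H1f5 had the lowest log2 fold change of the 36 genes, −0.59 ± 0.344 (SE, edgeR adjusted p = 0.546). H1f10, a variant H1 gene, had a mean of 0.319 CPM in WT and 0.236 in M92KO, with overlapping groups.

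Of the 5 H2A genes tested other than H2aw, none separated the groups. H2az1 and H2az2 encode H2A.Z, a variant placed around transcription start sites. H2az1 had 60.4 ± 3.82 CPM in WT and 63.2 ± 5.51 in M92KO, and H2az2 had 37.1 ± 1.86 and 35.8 ± 2.55 (SD, n = 3 each). H2ax encodes the variant that is phosphorylated at DNA breaks, and its CPM of 5.87, 5.46 and 5.07 in WT overlapped with 6.48, 5.56 and 6.36 in M92KO. Their log2 fold changes were 0.07, −0.05 and 0.17, with adjusted p-values in edgeR of 0.805, 0.834 and 0.648. For the identical pair H2ac18 and H2ac19, log2 fold changes were 0.06 ± 0.102 and 0.02 ± 0.12 (SE), and M92KO replicate 1 was the highest library for both genes. The next clustered H2A gene by level, H2ac10, had at most 13 counts in any library and was not tested.

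H2bc4 was the most abundant H2B gene. It had 45.9, 46.2 and 47.5 CPM in WT and 56.2, 50.8 and 52.2 in M92KO. The groups did not overlap, and the log2 fold change was 0.19 ± 0.0664 (SE, edgeR adjusted p = 0.318, exact permutation p = 0.1). H2bc8 shares most of its sequence windows with H2bc4. Its values were 6.21, 6.395 and 5.74 CPM in WT and 7.31, 6.75 and 6.86 in M92KO, also without overlap, with a log2 fold change of 0.19 ± 0.109 (SE, edgeR adjusted p = 0.539). H2bc21 and H2bc6 overlapped between groups, at 9.06 ± 0.204 against 9.93 ± 1.43 CPM and 5.53 ± 0.628 against 6.15 ± 0.0773 CPM. The highest log2 fold change after H2aw was that of H2bc7, 0.72 ± 0.401 (SE, edgeR adjusted p = 0.522). This gene was named after its values were seen, and its groups, from 0.272 to 0.647 CPM in WT and from 0.458 to 0.922 in M92KO, overlapped.

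H3f3a and H3f3b encode the same protein, H3.3, which replaces H3 outside DNA replication and at active genes. H3f3a had 203, 214 and 215 CPM in WT and 211, 194 and 197 in M92KO, and H3f3b had 91.1, 85.5 and 89.1 CPM in WT and 99.7, 90.3 and 77.6 in M92KO. Groups overlapped for both, with log2 fold changes of −0.07 ± 0.0665 and 0.01 ± 0.094 (SE) and adjusted p-values in edgeR of 0.727 and 0.978. The clustered genes H3c14 and H3c15 lie near each other on chromosome 3 and share all their windows. H3c15 had 2.62, 2.41 and 2.79 CPM in WT and 3.74, 3.24 and 2.89 in M92KO, and H3c14 had 1.91, 2.15 and 2.03 in WT and 2.48, 2.23 and 2.31 in M92KO. Neither gene overlapped between groups, and their log2 fold changes were 0.34 ± 0.163 and 0.21 ± 0.165 (SE), with adjusted p-values in edgeR of 0.462 and 0.672. H3c4 and H3c11 were near 1 CPM and overlapped between groups.

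The H4 genes are known to encode the same protein, and 6 were tested. H4c8, the most abundant, had 11.5, 10.6 and 11.3 CPM in WT and 11.4, 9.38 and 9.67 in M92KO, with overlapping groups and a log2 fold change of −0.14 ± 0.107 (SE, edgeR adjusted p = 0.667). In H4c9 the difference had the opposite sign, with 8.51, 7.79 and 9.39 CPM in WT and 10.1, 9.59 and 10.6 in M92KO. H4c9 did not overlap between groups, and its log2 fold change was 0.23 ± 0.107 (SE, edgeR adjusted p = 0.431). H4c12, at 0.279 ± 0.0604 CPM in WT and 0.395 ± 0.00891 in M92KO, did not overlap either (log2 fold change 0.50 ± 0.328 SE, edgeR adjusted p = 0.6). H4c2 and H4c17 were below 1.3 CPM and overlapped.

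Summed by class, the variant H1 genes (H1f0 and H1f10) gave 135, 137 and 133 CPM in WT and 174, 160.1 and 148 in M92KO, a ratio of means of 1.19, and the 8 other H1 genes gave a ratio of 1.16. Ratios were 1.13 for the 16 H2B genes, 1.15 for the 12 clustered H3 genes, 1.04 for the 12 H4 genes and 1.05 for the 18 H2A genes other than variants. The H2A variants and the H3.3 genes had ratios of 1.02 and 0.969. In the H2B sum, M92KO values (85.5, 76.3 and 78.6 CPM) lay above WT values (70.5, 71.5 and 70.1 CPM), as they did in both H1 sums and in the clustered H3 sum. The 4 other sums overlapped between groups. These sums are set by their most abundant genes and are given without a test. M92KO replicate 1 was the highest library in 7 of the 8 classes and held the highest value in 18 of the 36 tested genes, and its part in the sums is seen in the total. Over all 73 genes the ratio was 1.06 with it and 1.03 without it.

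**Figure D4:**
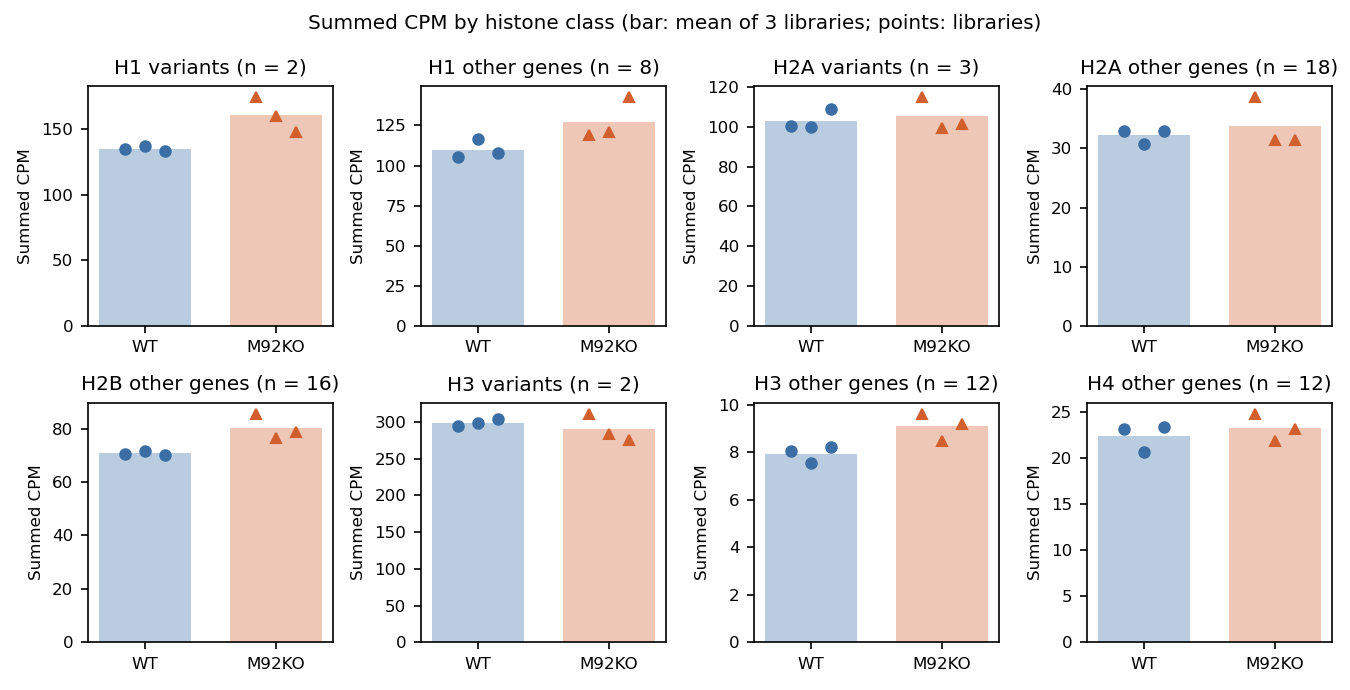
Bars give the mean summed CPM of each histone class in WT and M92KO, and points give the 3 libraries of each group (axes start at 0 and differ between panels). M92KO points lie above WT points for both H1 classes, H2B and the clustered H3 genes, and overlap with them for the other 4 classes.

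Genes that serve histones were listed by role, with earlier results of these data known. Of 20 tested S-phase and proliferation genes, 0 had an unadjusted p under 0.05 in edgeR in either direction (5.47% of all genes higher and 6.92% lower), and their median log2 fold change was −0.10. Pcna, the sliding clamp of DNA replication, had 26.5, 25.5 and 25.7 CPM in WT and 28.8, 29.1 and 27.1 in M92KO, which did not overlap (edgeR adjusted p = 0.491). Mcm7, a subunit of the replicative helicase, and Top2a, a topoisomerase of dividing cells, overlapped between groups, and Top2a was at 1.19 ± 0.423 CPM in WT and 0.794 ± 0.132 in M92KO. Of 18 tested genes for histone transcription and 3′ end formation, 0 were higher and 2 lower at an unadjusted p under 0.05, beside the same 5.47% and 6.92% of all genes. The latter were Lsm11, a protein of the U7 particle that cuts histone pre-mRNA, with 7.17, 6.395 and 7.19 CPM in WT and 5.70, 5.41 and 5.95 in M92KO, and the cleavage factor gene Cstf2t (48.4 ± 1.43 against 43.4 ± 0.814 CPM). Their adjusted p-values in edgeR were 0.373 and 0.365. Lsm10, the partner of Lsm11, had a log2 fold change of 0.38 with overlapping groups.

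Of 28 histone chaperones and exchange factors, 3 were higher and 1 lower at an unadjusted p under 0.05, beside 5.47% and 6.92% of all genes. Asf1b, the H3-H4 chaperone of proliferating cells, had 0.303, 0.311 and 0.251 CPM in WT and 0.691, 0.428 and 0.468 in M92KO, without overlap (log2 fold change 0.87 ± 0.333 SE, edgeR adjusted p = 0.352). Npm1, a nucleolar chaperone, and Rbbp4, a subunit of the CAF-1 assembly complex, were higher by 0.17 and 0.16 on the log2 scale, with adjusted p-values in edgeR of 0.352 and 0.388. Hjurp, the chaperone of the centromeric H3 variant, had 53.7, 56.3 and 52.6 CPM in WT and 50.8, 44.5 and 44.0 in M92KO (edgeR adjusted p = 0.314). The centromeric variant itself, Cenpa, is a histone gene outside the name rule, and its 3.16, 3.21 and 3.10 CPM in WT lay below 3.54, 4.43 and 4.19 in M92KO (edgeR adjusted p = 0.373). Of the other genes outside the rule, Macroh2a1 (90.6 ± 3.64 against 85.0 ± 3.51 CPM) and Macroh2a2 (2.26 ± 0.377 against 1.89 ± 0.145), for macroH2A variants, overlapped between groups, and 5 testis variants had 0 counts in every library. The median log2 fold changes of these lists were −0.01 for histone transcription and 3′ ends, 0.03 for chaperones and −0.09 for the 4 tested histone genes outside the rule, beside 0.00 for all genes.

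Some markers of other cells in whole muscle had an unadjusted p under 0.05, as did 5.47% of all genes in the higher and 6.92% in the lower direction. Pax7, which marks satellite cells, the stem cells of muscle, had 4.76, 6.94 and 6.14 CPM in WT and 7.78, 9.19 and 9.31 in M92KO (edgeR adjusted p = 0.234), and was the only 1 of 3 satellite cell markers below that threshold. All 3 markers together summed to between 43.8 and 64.3 CPM in WT and between 55.6 and 60.9 in M92KO. Of 4 fibroblast markers, 2 were lower at an unadjusted p under 0.05 (Dcn and Col1a1), and their sum ranged from 1310 to 1659 CPM in WT and from 871 to 1221 in M92KO. Of 5 leukocyte markers, 1 was lower (Ptprc), and the sum of all 5 ranged from 25.4 to 27.0 CPM in WT and from 18.03 to 26.1 in M92KO. The sums of 4 endothelial (699 to 767 against 610.1 to 789 CPM), 5 red cell (74.0 to 223 against 143 to 336 CPM) and 4 fat cell markers (304 to 360.2 against 303 to 374 CPM) overlapped between groups. No marker of these lists was at 0 counts in every library. The part of these cells in the histone values was not tested.

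Histone promoters are known for recurring short motifs, and windows from 250 bases before to 50 bases after the start were given by RefSeq (GRCm38.p6) for 67 of the 73 genes. CCAAT, searched on both strands, was found in 83.6% of these and in 41.1% of the 27025 genes with a window. All 20 H2A, 14 H2B and 12 H3 genes with a window held it, against 3 of 11 H4 genes. TATAAA was found in 52.2% against 15.7%, and ATTTGCAT, the letters bound by Oct factors and known from H2B genes, in 22.4% against 1.97%, with 7 of 14 H2B and 7 of 20 H2A genes among them. H2aw held ATTTGCAT, read on its own strand as ATGCAAAT, 119 bases before its start, and 2 copies of CCAAT. None of the 10 H1 genes with a window held ATTTGCAT. A relation between these letters and the values of the genotypes was not tested. The windows around ATTTGCAT in H2aw (chr11:58954557-58954582) and H2bc8 (chr13:23571332-23571357) are shown as examples, with the motif in capitals.
H2aw: gtaaggcatATGCAAATtaggaaggc
H2bc8: gagtcccttATTTGCATagaacctct
A match describes the letters only and is no evidence of binding in these muscles.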

How the data were processed

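Gas RNA of 3 WT and 3 M92KO mice was sequenced, with 1 library per mouse (RNeasy and SMARTer kits, per the labels). The authors deposited raw, unnormalized counts of reads per gene symbol. The submitters' processing notes name GRCm38 and mm10, and the aligner, counting program, annotation and strandedness are not given in the sources used here. Totals were between 33160508 and 48209846 counts, and values above a floor of 3 counts were taken as detected.

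The fits used edgeR 4.0.16 under R 4.3.3. Genes were filtered with filterByExpr (minimum count 10, minimum total count 15, in effect 0.266 CPM in 3 libraries), normalized with TMM and compared with the quasi-likelihood test, adjusted with Benjamini-Hochberg over the 15788 genes tested. The model was tested on simulated data. The exact two-sided permutation test used log2(CPM + 0.1). Correlations of same-numbered WT and M92KO libraries (deviations from group means) were 0.0742, 0.045 and 0.0148, and those of the other pairs ranged from −0.0599 to 0.0301. Such weak correlations cannot exclude pairing. The samples were fitted as unpaired, with a replicate block as an alternative. Alternatives were DESeq2 size factors, DESeq2 1.42.0, no filter, at least 10 counts in every library, a replicate block, the limma (3.58.1) steps of the supplementary methods, thinning to the smallest library and leaving out each library.

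Gene positions came from the RefSeq table of GRCm38.p6, transcripts from GENCODE M21, and microRNAs and promoters from RefSeq, and all 73 genes matched. The members and lists were chosen with earlier results of these data known. Genes named were H2aw, the variants, up to 4 abundant clustered genes per family, tested genes whose groups did not overlap, genes next to the filter and to H2aw, and up to 3 genes per list by p-value (without gene values for the lists of other cells beyond those that differ). The share of H2aw in the counts of H2aw and Trim17 was computed after seeing the data. Python 3.11.15 (matplotlib 3.10.9 for plots, scipy 1.17.1 for exact intervals, pandas 2.3.3, numpy 2.4.6) was used for the rest.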

Additional observations from a re-analysis of the deposited data

How the results depend on the processing

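Over the whole table, genes with an adjusted p-value under 0.05 numbered 0 in edgeR, 312 in DESeq2, 6 without the filter, 2 with the replicate block, 42 with the steps of the supplementary methods, and between 0 and 401 with 1 library left out, highest without M92KO replicate 1 (5 without WT replicate 1, 1 without M92KO replicate 2). Under each of these settings 0 of the histone genes other than H2aw were called. Without H2aw, histone genes higher at an unadjusted p under 0.05 numbered 3 of 35 (5.47% of all genes), 7 of 72 with the supplementary steps (3.58%), 2 of 35 with the replicate block (4.35%) and between 2 and 4 with 1 library left out (between 3.33% and 9.62%), and those lower numbered 0, or 1 of 37 without M92KO replicate 1 (8.96%). Histone genes without overlap, other than H2aw, numbered 8 of 35, all above WT, beside 8.77% of all genes above and 9.58% below. With 1 library left out they numbered between 8 and 16, above and below together, since fewer values can overlap. They numbered 16 of 37 without M92KO replicate 1, 13 of 35 without WT replicate 1 and 13 of 37 without M92KO replicate 2. Of the 16, 11 lay above and 5 below, beside 18.9% and 18.3% of all genes. For the other libraries left out, the share of all genes is not given here, so nothing is read from those counts. The median log2 fold change stayed between 0.09 (without M92KO replicate 1) and 0.19. The log2 fold change of H2aw was 3.40, 3.37 with the block, 3.05 with the supplementary steps, 2.98 as a ratio of means after thinning, and between 3.03 and 3.60 with 1 library left out. Of the 28 other tested genes whose log2 fold change or group values are named, 19 kept their sign under all alternatives run and 9 did not. With 1 library left out, log2 fold changes ranged from −0.819 to 0.041 for H1f10, from −0.0397 to 0.494 for H1f4, from −0.0417 to 0.115 for H2ac18, from −0.12 to 0.0867 for H2ac19, from −0.0088 to 0.116 for H2az1, from −0.15 to 0.44 for H3c11, from −0.24 to 0.0568 for H3c7, from −0.0782 to 0.10 for H3f3b and from −0.12 to 0.26 for H4c2. With the supplementary steps H3f3b was at −0.0157. The cause was not tested. The replicate numbers came from the labels, and the deviations of same-numbered samples were only weakly correlated. Depth limits the 37 genes not tested and the WT level of H2aw, and the intervals cover counting error only.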
